A study of Mus musculus with 9 samples.

Results

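Type I interferon effector genes are the genes that cells switch on through the interferon receptor and whose products act against virus. A list of 40 of them was taken by name, and 38 had a probe set on the arrays that names this gene and no other. They stand among 19937 genes measured in the same way. *Isg15*, the ubiquitin-like protein conjugated after interferon, was not measured here because its probe set also names *Gm9706*, and *Ifi44* had no probe set under its name. The levels were set beside each other in 3 populations of Ly6Chi CD115+ bone marrow cells. R3 cells were sorted as Flt3+CD11c+ and were called pre-dendritic cells (pre-DCs) by the study, R2 cells were sorted as Flt3+CD11c- and R1 cells as Flt3-CD11c-, and both of these were called monocytes. All cells came from untreated C57Bl/6 mice of 8 weeks, held free of specific pathogens, so no agent was given and no allele differs between the populations. Each population was measured on 3 arrays, 9 in all, and each of the 3 dates in the labels holds 1 array of each population. Replicate numbers here follow those dates, and values of a population are listed in the order of replicates 1, 2, and 3. The sources used here do not say whether the arrays came from separate or pooled mice, and the p-values therefore rest on array-to-array spread that may be technical.

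Interferon-α and interferon-β bind a shared receptor and activate the kinases Jak1 and Tyk2. The transcription factor complex ISGF3, which contains IRF9, then binds the interferon-stimulated response element (ISRE) in promoters. Many cells also transcribe a part of these genes at a low level with no infection, through the same receptor. Monocytes are known for a strong response to interferon, and plasmacytoid dendritic cells (pDCs) for producing it.

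The promoters of the members were searched for the core of this element. RefSeq (GRCm38.p6) gave promoter windows, from 250 bases before to 50 bases after the gene start, for 29 of the 38 measured members. *Tor3a*, *Oas2*, *Mx1*, *Usp18*, *Mx2*, *Rtp4*, *Parp14*, *Ifi27*, and *Parp9* were not matched. The letters GAAANNGAA were found on either strand in the windows of 12 of the 29 members (41.4%), against 9.76% of 27025 genes with a window. The 150 bases before the start are shown for 2 members that were lower in R3 than in R1 cells and for *Bst2*, the member that was higher, because all 3 hold at least 2 copies of the ISRE-type core there. The start is the 1 that the table uses, and for *Oas3* the gene model of the same build begins slightly farther out, inside the stretch. Each stretch reads toward the start, and capitals mark the ISRE-type core, in runs of 15 where neighboring matches share bases.
*Ifit1* promoter, chr19:34640739-34640888, plus strand: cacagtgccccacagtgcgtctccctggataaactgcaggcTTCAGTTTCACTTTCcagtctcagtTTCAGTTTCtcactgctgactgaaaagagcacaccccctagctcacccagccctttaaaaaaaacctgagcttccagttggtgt
*Oas3* promoter, chr5:120777660-120777809, minus strand: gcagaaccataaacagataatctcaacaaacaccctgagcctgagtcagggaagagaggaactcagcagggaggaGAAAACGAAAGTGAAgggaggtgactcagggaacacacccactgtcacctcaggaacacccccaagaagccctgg
*Bst2* promoter, chr8:71537473-71537622, minus strand: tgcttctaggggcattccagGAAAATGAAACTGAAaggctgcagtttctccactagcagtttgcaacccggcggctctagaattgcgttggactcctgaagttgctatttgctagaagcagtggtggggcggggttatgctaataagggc
In *Ifit1* the matches begin 109, 103, and 84 bases before the start, on the opposite strand. *Oas3* has a pair at 75 and 69 bases and *Bst2* a pair at 130 and 124 bases, in the direction of the gene. A match is a run of letters and not a measured binding site. Of the members called lower in R3 than in R1 cells, 8 of 19 with a window held the ISRE-type core, and of the others 4 of 10 did, so the core was about as frequent on either side of the call.

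The arrays were even in their overall level, with a median intensity of 58.0 to 64.7 per array. The transcripts of the sort genes followed the gate for CD11c and only in part for Flt3. *Itgax*, which encodes CD11c, had 10.70 to 10.85 in R3 cells, 5.30 to 6.18 in R2 cells, and 5.06 to 5.33 in R1 cells (log2 intensity). *Flt3* had 10.99 to 11.09 in R3 cells, 7.70 to 8.02 in R2 cells, and 6.74 to 7.78 in R1 cells, so the transcript did not separate R2 from R1 arrays although Flt3 protein did in the sort. The summed linear intensity of 8 of 9 Ly6C+ monocyte markers was 7639 to 8810 in R3 arrays, 15111 to 15898 in R2 arrays, and 16611 to 18525 in R1 arrays. The 9 DC precursor markers summed to 12816 to 14090 in R3, 5142 to 6279 in R2, and 4324 to 5788 in R1 arrays. Of these 9, 6 were called higher and 1 lower in R3 than in R2 cells, with log2 differences from -1.84 to 4.94. For 8 of 10 pDC markers the sums were 7625 to 8673 in R3, 1384 to 1435 in R2, and 1235 to 1335 in R1 arrays. Neutrophil and granule genes, 10 in all, summed to 1110 to 6428 in R3, 11220 to 15356 in R2, and 6573 to 12203 in R1 arrays, with R3 replicate 2 at the low end. In R3 minus R2 cells 4 of these 10 were called lower and 0 higher, and 5 had the higher mean in R3. The 7 T and natural killer cell markers stayed under a log2 intensity of 6 on every array, as did 3 of 4 erythroid markers, and no marker was at 0. In sorted bulk cells, fewer cells of a type that express a gene and less of its RNA per cell cannot be told apart. The part of these marker differences in the results on interferon genes was not tested.

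Over the 38 members the level was lowest in R3 cells and highest in R1 cells. The median member stood at log2 intensities of 7.87, 7.53, and 7.84 in R3 arrays, 8.00, 8.10, and 8.13 in R2 arrays, and 8.60, 8.36, and 8.36 in R1 arrays. The 3 sets of arrays did not overlap in this median, while the median of all genes stayed between 6.16 and 6.26 on every array. By means, 28 of the 38 members were ordered R3 below R2 below R1 (73.7%), against 25.6% of all genes. The other 10 had their lowest mean in R2 cells, and none had the reverse order or its highest mean in R2 cells. In 13 members (34.2%) the order held with no overlap of arrays at either step, against 2.02% of all genes. These were *Ifit1*, *Ifit2*, *Ifit3*, *Isg20*, *Oasl2*, *Oas3*, *Rsad2*, *Parp12*, *Parp14*, *Ifitm2*, *Ifitm3*, *Rtp4*, and *Lgals9*. For *Ifitm2*, which has 3 probe sets, arrays were free of overlap only on the probe set that was kept. Across the alternatives that left out 1 array or 1 date, 23 to 30 members had this order by means.

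**Figure D1:**
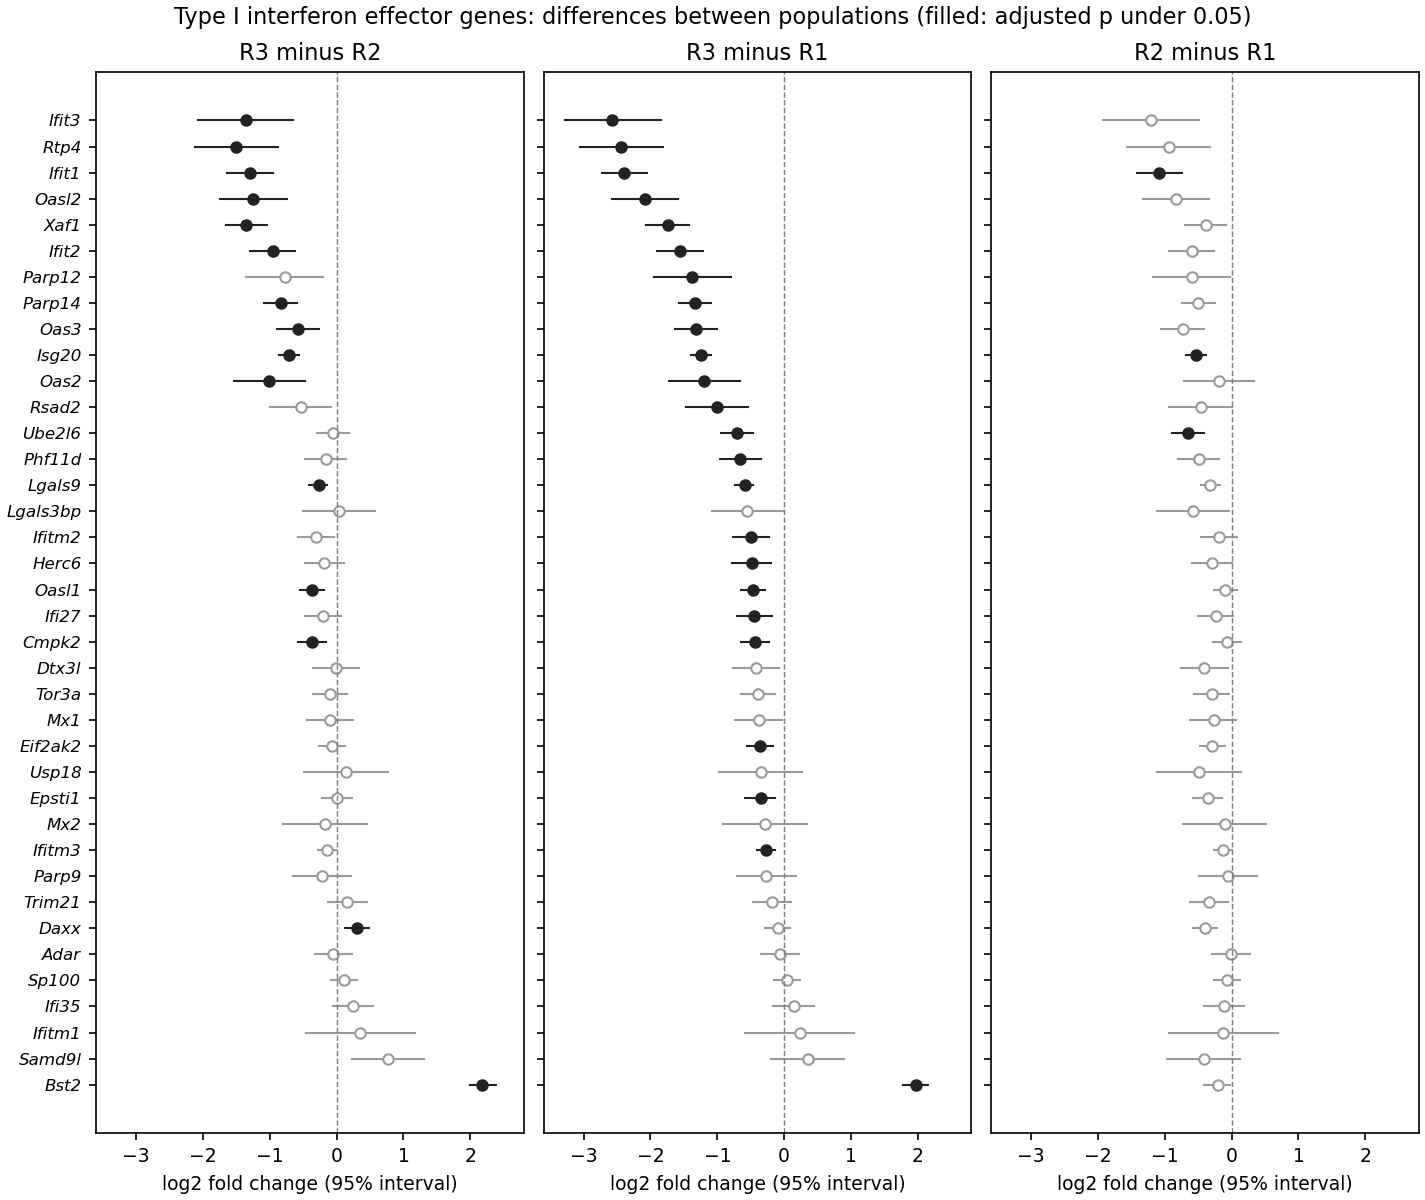
Log2 fold change of each of the 38 measured members with its 95% interval, for R3 minus R2, R3 minus R1, and R2 minus R1 cells. Filled points passed an adjusted p of 0.05 in limma over 19937 genes. *Bst2* stands alone at the right in both comparisons with R3, and all R2 minus R1 points lie left of 0 (that of *Adar* at -0.01).

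The first comparison asked how pre-DCs differ from the Flt3+ monocytes. Called at an adjusted p under 0.05 over all genes (limma), 13 members were lower in R3 than in R2 cells, where 4.69% of all genes were, and 2 members were higher, where 4.85% of all genes were. The median member differed by -0.18 on the log2 scale, and the median of all genes by -0.01. At an unadjusted p under 0.05, 17 members were lower, against 9.49% of all genes, and 3 higher, against 9.91% of all genes. In 18 members every R3 array lay below every R2 array, against 12.2% of all genes, and in 3 every R3 array lay above, against 12.6% of all genes. The lower count was 8 without R3 replicate 1, 7 without R3 replicate 2, 7 without R2 replicate 1, and 8 without R2 replicate 3, and it was 5 to 6 when all 3 arrays of a date were left out. With the label date as a block, *Parp12* (adjusted p = 0.0448, against 0.108 without it) was also lower and *Samd9l* (0.0143, against 0.0868) also higher.

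The comparison of pre-DCs with the Flt3- monocytes gave more calls. In R3 cells 23 members were lower than in R1 cells, against 7.02% of all genes, and 1 member was higher, against 6.49% of all genes. The median difference was -0.46 for members and -0.02 for all genes. In 26 members every R3 array lay below every R1 array, against 12.9% of all genes, and in 1 member, *Bst2*, every R3 array lay above, against 11.6% of all genes. With 1 date left out the lower count was 13 without replicate 1 and 13 without replicate 2. The block on label date added *Mx1* (adjusted p = 0.0316, against 0.163 without it). This comparison shares its R3 arrays with the first and its R1 arrays with the next.

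Between the 2 monocyte populations few members passed the test and yet all 38 had the lower mean in R2 cells. Called lower in R2 than in R1 cells were 3 members, *Ifit1*, *Isg20*, and *Ube2l6*, where 0.181% of all genes were called lower, and no member was called higher, where 0.211% of all genes were. All 3 calls were lost with the date block and in the fit to these 2 populations alone. At an unadjusted p under 0.05, 23 members were lower and 0 higher, against 6.11% of all genes for lower. In 24 members (63.2%) every R2 array lay below every R1 array, against 7.99% of all genes. On all 3 dates the R2 array was below the R1 array in 29 members (76.3%), against 16.2% of all genes. The median difference was -0.35, and -0.43 when each array was centered on its median, where the median of all genes was -0.10. Leaving out R2 replicate 1, R1 replicate 1, or R1 replicate 2 left 37, 36, and 36 members with the lower mean in R2 cells. Without any 1 of the R2 arrays, without R3 replicate 1, or without R1 replicate 2, no member was called, and without R1 replicate 1 only 1 was.

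Large and regular differences lay in the genes whose products bind foreign RNA or block its translation. Of 10 measured, 8 were lower in R3 than in R2 cells, 9 were lower in R3 than in R1 cells, and 2 were lower in R2 than in R1 cells. Of all genes, 4.69%, 7.02%, and 0.181% were called lower in these comparisons. The median member of this group differed by -0.84, -1.28, and -0.57 in these comparisons. *Ifit1*, which binds the ends of foreign RNA, had log2 intensities of 5.17, 4.75, and 5.21 in R3 arrays, 6.20, 6.31, and 6.53 in R2 arrays, and 7.52, 7.57, and 7.21 in R1 arrays. No array of one population reached into the next. The R3 arrays lay below the array medians, and their distance from background is not known. *Ifit1* was 2.46-fold lower in R3 than in R2 cells (log2 difference -1.30 ± 0.15 SE, adjusted p = 0.000489) and 5.24-fold lower in R3 than in R1 cells (-2.39 ± 0.15, adjusted p = 8.68e-06). In R2 cells it was 2.12-fold lower than in R1 cells (-1.09 ± 0.15, adjusted p = 0.0282, with the date block 0.0629).

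*Isg20*, an exonuclease that degrades RNA, showed the same order with little spread. Its values were 6.30, 6.42, and 6.34 in R3 arrays, 7.00, 7.11, and 7.10 in R2 arrays, and 7.66, 7.60, and 7.56 in R1 arrays. *Isg20* was 1.64-fold lower in R3 than in R2 cells (-0.71 ± 0.07, adjusted p = 0.000145) and 2.38-fold lower in R3 than in R1 cells (-1.25 ± 0.07, adjusted p = 3.67e-06). The difference of R2 from R1 cells was -0.54 ± 0.07 (adjusted p = 0.0236, with the date block 0.0594). For both *Ifit1* and *Isg20*, the calls in R3 cells held in every alternative that was run. Their calls between R2 and R1 cells did not, reaching an adjusted p of 0.154 and 0.123 with 1 array left out.

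*Ifit3*, the partner that stabilizes Ifit1 in human cells, had the largest drop among the members in R3 minus R1 cells. It read 7.51, 6.86, and 6.81 in R3 arrays, 8.57, 8.54, and 8.15 in R2 arrays, and 10.20, 9.77, and 8.89 in R1 arrays, so the R1 arrays were the most spread. *Ifit3* was 2.57-fold lower in R3 than in R2 cells (adjusted p = 0.0255) and 5.92-fold lower in R3 than in R1 cells (adjusted p = 0.000606), while R2 minus R1 was -1.20 ± 0.32 and was not called (adjusted p = 0.176). The call against R2 was lost when R3 replicate 2 or 3, or 1 array of R2, was left out, at adjusted p up to 0.0975. The call for R2 against R1 was gained without R1 replicate 3 (adjusted p = 0.0416). Its near copy *Ifit3b* may share probes with it, and so the *Ifit3* reading is uncertain between them. *Ifit2*, of the same family, had 5.81, 6.34, and 5.80 in R3 arrays, 6.91, 6.98, and 6.94 in R2 arrays, and 7.70, 7.61, and 7.34 in R1 arrays. It was 1.95-fold lower in R3 than in R2 cells (adjusted p = 0.00332) and 2.96-fold lower in R3 than in R1 cells (adjusted p = 0.000135). R3 replicates 1 and 3 lay below the array medians of 5.86 to 6.02, so the size of these folds is uncertain.

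**Figure D2:**
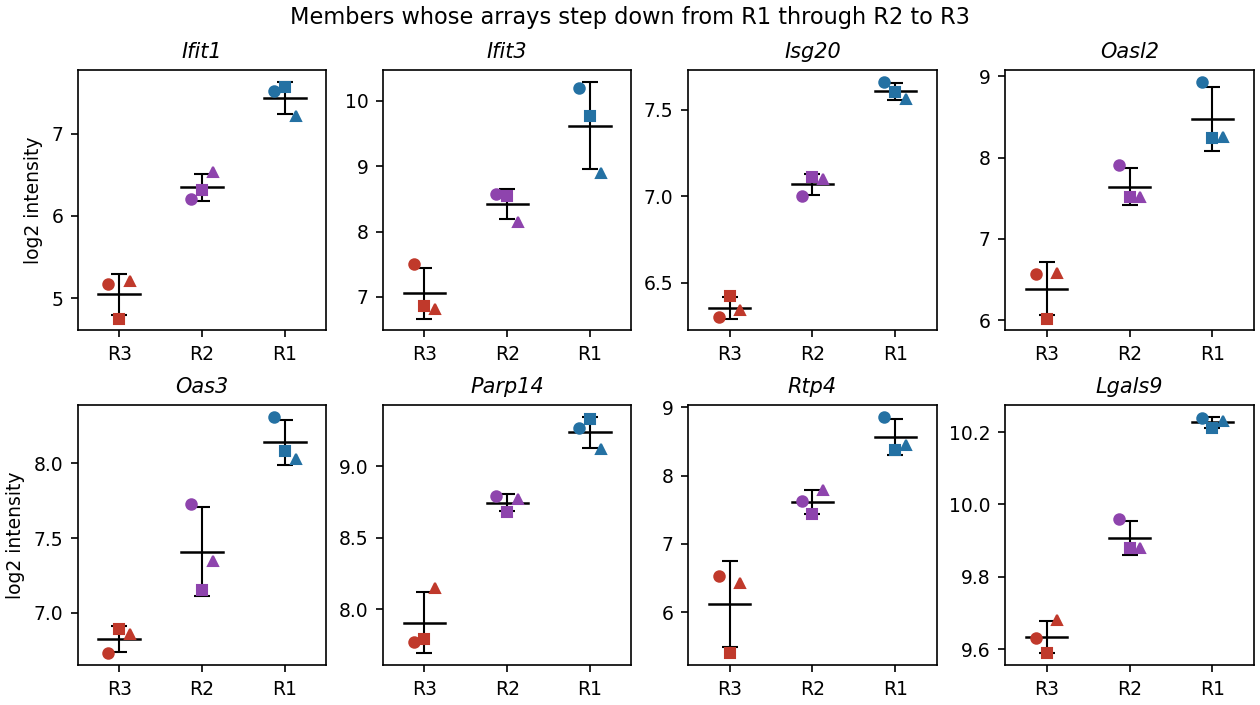
Log2 intensity per array of 8 members in R3, R2, and R1 cells, with circles, squares, and triangles for replicates 1, 2, and 3 and bars for the mean ± SD (n = 3). In each panel, whose axis has its own range, the 3 populations are separate and R3 cells are lowest.

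Oligoadenylate synthetases sense double-stranded RNA and make the messenger that activates RNase L, and 2 OAS-like proteins are their relatives. *Oasl2* had 6.57, 6.02, and 6.58 in R3 arrays, 7.91, 7.51, and 7.51 in R2 arrays, and 8.93, 8.24, and 8.25 in R1 arrays, and was 2.38-fold lower in R3 than in R2 cells (adjusted p = 0.00622) and 4.24-fold lower in R3 than in R1 cells (adjusted p = 0.000234). *Oas3* had 6.73, 6.89, and 6.86 in R3 arrays, 7.73, 7.15, and 7.35 in R2 arrays, and 8.31, 8.08, and 8.03 in R1 arrays, with adjusted p values of 0.031 against R2 and 0.000258 against R1. Both genes had 3 separate levels. *Oas2* did not, since its R2 and R1 arrays overlapped. It had 6.93, 6.83, and 7.15 in R3 arrays, 8.01, 7.81, and 8.10 in R2 arrays, and 8.81, 7.88, and 7.80 in R1 arrays, where replicate 1 stood above the others. *Oas2* was 2.01-fold lower in R3 than in R2 cells (adjusted p = 0.0274) and 2.29-fold lower in R3 than in R1 cells (adjusted p = 0.00892). *Oasl1*, which restrains the translation of Irf7 in mice, differed less, at -0.37 ± 0.08 in R3 minus R2 (adjusted p = 0.0179) and -0.46 ± 0.08 in R3 minus R1 (adjusted p = 0.00412), and had 6.71, 6.73, and 6.90 in R3, 7.13, 7.08, and 7.24 in R2, and 7.25, 7.31, and 7.17 in R1 arrays. The calls against R2 were lost without any 1 of the R3 arrays, R2 replicate 1 or 3, or R1 replicate 2 for *Oas3* (adjusted p up to 0.111), without any 1 of the R2 arrays or R3 replicate 1 or 2 for *Oas2* (up to 0.111), and without R3 replicate 1 or 2 or R2 replicate 1 or 3 for *Oasl1* (up to 0.0738).

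The kinase PKR, encoded by *Eif2ak2*, and the RNA deaminase encoded by *Adar* showed smaller differences or none that could be called. *Eif2ak2* had 8.61, 8.42, and 8.66 in R3 arrays, 8.64, 8.68, and 8.58 in R2 arrays, and 8.85, 8.89, and 9.03 in R1 arrays. R1 arrays stood above both other sets, which overlapped. R3 minus R1 was -0.36 ± 0.08 (adjusted p = 0.0195), a call lost without R3 replicate 2 or R1 replicate 3 (adjusted p up to 0.0632). *Adar* differed by -0.05, -0.06, and -0.01 in the 3 comparisons, with standard errors of 0.12.

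The 3 PARP family members encode ADP-ribosyltransferases and a binding partner of Dtx3l. Of them, 1 was lower in R3 than in R2 cells, against 4.69% of all genes, and 2 were lower in R3 than in R1 cells, against 7.02%. None was called between R2 and R1 cells, where 0.181% of all genes were called lower and 0.211% higher. *Parp14* had 7.77, 7.79, and 8.15 in R3 arrays, 8.79, 8.68, and 8.77 in R2 arrays, and 9.27, 9.33, and 9.12 in R1 arrays. It was 1.79-fold lower in R3 than in R2 cells (adjusted p = 0.000978) and 2.53-fold lower in R3 than in R1 cells (adjusted p = 4.36e-05). *Parp12* also had separate levels, with 7.22, 6.23, and 7.09 in R3 arrays, 7.60, 7.62, and 7.65 in R2 arrays, and 8.60, 7.88, and 8.20 in R1 arrays. R3 replicate 2 was the lowest array by far, and the 2.60-fold difference of R3 from R1 cells passed (adjusted p = 0.00617). *Parp9* overlapped in every comparison, with means differing by -0.22, -0.27, and -0.05.

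The GTPases and nucleotide or lipid enzymes split. *Rsad2*, which encodes viperin, had 5.77, 6.07, and 6.05 in R3 arrays, 6.51, 6.56, and 6.45 in R2 arrays, and 6.62, 7.52, and 6.77 in R1 arrays, separate at both steps. Its R3 arrays lay close to or below the array medians of 5.86 to 6.02, so the size of its folds is uncertain. The 2.01-fold difference of R3 from R1 cells was called (adjusted p = 0.0104), and that of R3 from R2 cells was not (-0.54 ± 0.20, adjusted p = 0.171), except without R1 replicate 2 (0.0109) or in the fit to these 2 populations (0.0173). *Cmpk2*, a mitochondrial nucleotide kinase, had 7.50, 7.30, and 7.63 in R3 arrays, 7.94, 7.83, and 7.78 in R2 arrays, and 7.92, 7.85, and 7.99 in R1 arrays. Here R2 and R1 cells overlapped and R3 cells were lower than both, at -0.37 ± 0.09 against R2 (adjusted p = 0.0376) and -0.44 ± 0.09 against R1 (adjusted p = 0.0124). The call against R2 was lost in 13 of 19 alternatives, among them without any 1 R2 array, R3 replicate 1 or 2, or R1 replicate 2, with adjusted p up to 0.143. *Mx1* and *Mx2*, of the dynamin-like GTPase family, are both annotated as transcribed pseudogenes in the mouse reference (GRCm38.p6). They were not called, and differed by -0.38 and -0.28 in R3 minus R1.

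Among 5 genes of the ISG15 system and of ubiquitin-type ligases, none was called in R3 minus R2 cells, where 4.69% of all genes were lower and 4.85% higher. Lower in R3 than in R1 cells were 2, against 7.02% of all genes, and lower in R2 than in R1 cells was 1, against 0.181%. *Ube2l6*, the enzyme that carries ISG15 to its targets, had 7.35, 7.02, and 7.24 in R3 arrays, 7.35, 7.15, and 7.26 in R2 arrays, and 7.88, 8.05, and 7.78 in R1 arrays. R3 and R2 cells thus shared 1 level, and R1 cells stood above both. R2 minus R1 was -0.65 ± 0.11 (adjusted p = 0.0469, with the date block 0.0801), and R3 minus R1 was -0.70 ± 0.11 (adjusted p = 0.002). The call of R2 against R1 was lost without any 1 R2 array, R3 replicate 1 or 3, or R1 replicate 1 or 2 (adjusted p up to 0.213). *Herc6*, the main ISG15 ligase in mice, had 7.42, 7.19, and 6.94 in R3 arrays, 7.35, 7.39, and 7.37 in R2 arrays, and 7.88, 7.51, and 7.61 in R1 arrays. Its call in R3 minus R1 (-0.48 ± 0.13, adjusted p = 0.0392) was lost when any 1 array other than R3 replicate 1 or R1 replicate 2 was left out, with adjusted p up to 0.107. *Usp18*, which removes ISG15 and restrains the receptor, ran from 7.33 to 8.07 in R3, 7.17 to 7.97 in R2, and 7.89 to 8.61 in R1 arrays, all overlapping. *Dtx3l* and *Trim21* had all R2 arrays below all R1 arrays, at -0.41 ± 0.15 and -0.34 ± 0.13, and were not called in any comparison, except *Dtx3l* in R3 minus R1 without R3 replicate 3 (adjusted p = 0.0442).

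*Bst2* was the member called higher in R3 than in both other populations. It encodes tetherin, which holds budding virions at the cell surface, and its protein is widely used as a marker of pDCs in mice. Its values were 12.36, 12.16, and 12.07 in R3 arrays, 10.03, 9.94, and 10.07 in R2 arrays, and 10.18, 10.25, and 10.25 in R1 arrays. *Bst2* was 4.54-fold higher in R3 than in R2 cells (2.18 ± 0.08, adjusted p = 1.5e-06) and 3.92-fold higher in R3 than in R1 cells (1.97 ± 0.08, adjusted p = 9.91e-07). Between the monocyte populations its mean was lower in R2, at -0.21 ± 0.08 in R2 minus R1 (adjusted p = 0.398). Both calls held in all 19 alternatives. The pDC markers moved with it: *Siglech*, a surface lectin of pDCs, had 10.03, 10.05, and 9.32 in R3, 5.84, 6.04, and 5.57 in R2, and 5.55, 5.78, and 5.38 in R1 arrays, and the whole marker list is summed above. By surface staining, the study matched R3 cells to pre-DC subsets both with and without SiglecH. The part of pDC-type transcripts in the *Bst2* difference was not tested.

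**Figure D3:**
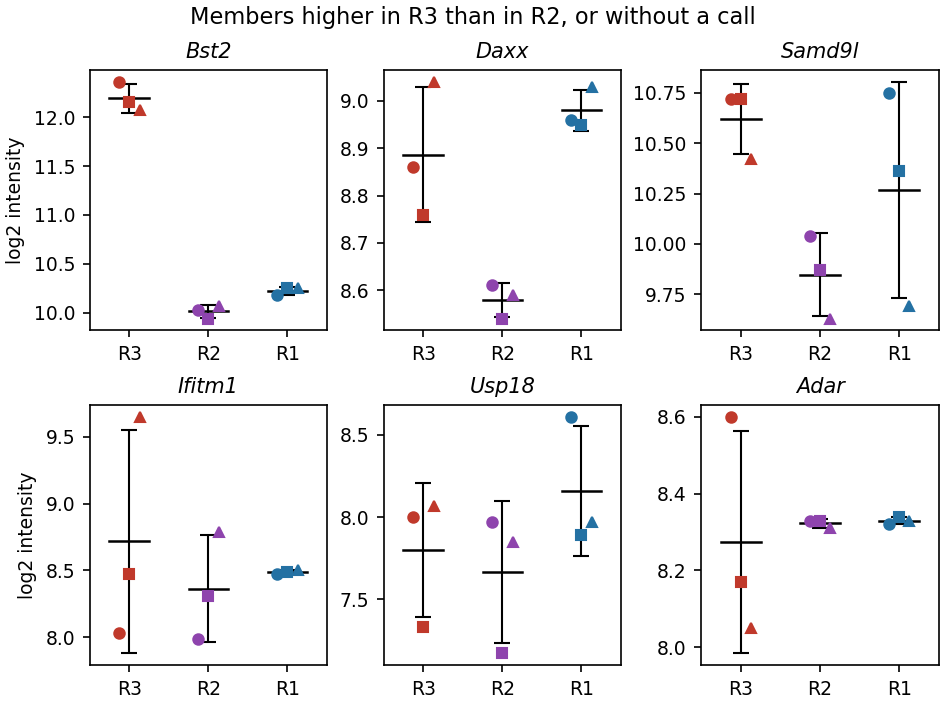
Log2 intensity per array of *Bst2* and *Daxx*, the members called higher in R3 than in R2 cells, and of 4 members with no call, in R3, R2, and R1 cells. Symbols mark replicates 1, 2, and 3 as circles, squares, and triangles, bars give the mean ± SD (n = 3), and axes differ between panels; *Bst2* in R3 lies at 12.07 to 12.36, and *Ifitm1* in R3 spans 8.03 to 9.65.

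The interferon-induced transmembrane proteins, which hinder the fusion of viruses with the cell, were high in all populations. *Ifitm3* had 12.69, 12.72, and 12.79 in R3 arrays, 12.89, 12.89, and 12.86 in R2 arrays, and 13.03, 12.98, and 12.99 in R1 arrays, separate at each step but close. Its difference in R3 minus R1 was -0.27 ± 0.06 (adjusted p = 0.0157). *Ifitm2* had 11.36, 11.41, and 11.82 in R3 arrays, 11.84 on each R2 array after rounding, and 11.89, 12.09, and 12.09 in R1 arrays, with -0.50 ± 0.12 in R3 minus R1 (adjusted p = 0.023). Without R3 replicate 1 or 2 neither was called, with adjusted p up to 0.0572 for *Ifitm3* and up to 0.0846 for *Ifitm2*, whose call was also lost without R1 replicate 2 or 3. Without R3 replicate 3, *Ifitm2* was also called in R3 minus R2 (adjusted p = 0.0123). The other probe sets of *Ifitm2* did not keep the populations separate. On another of them R3 replicate 3 read 11.64, above the R2 arrays at 11.58 to 11.63. On the last, R1 replicate 1 read 11.50, below the R2 arrays at 11.53 to 11.63. *Ifitm1* varied from 8.03 to 9.65 in R3 and 7.99 to 8.79 in R2 arrays, against 8.47 to 8.50 in R1 arrays, and was not called. Replicate 3 was highest in R3 and in R2 cells on both probe sets of *Ifitm1*. Members of this family are alike in sequence, and probes can be shared between them.

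*Daxx*, a histone chaperone of nuclear bodies, was the other member above R2 in R3 cells. It had 8.86, 8.76, and 9.04 in R3 arrays, 8.61, 8.54, and 8.59 in R2 arrays, and 8.96, 8.95, and 9.03 in R1 arrays. R2 cells were thus the lowest set, and R3 and R1 cells overlapped. The difference was 0.31 ± 0.08 in R3 minus R2 (adjusted p = 0.0449) and -0.09 in R3 minus R1 (adjusted p = 0.56). The call was lost in 14 of 19 alternatives, among them quantile normalization, centering on the array median, and the omission of any 1 R2 array, R3 replicate 1 or 3, or R1 replicate 2 or 3 (adjusted p up to 0.154). *Samd9l*, an inhibitor of translation and growth, had a similar shape with 10.72, 10.72, and 10.42 in R3 arrays, 10.04, 9.87, and 9.63 in R2 arrays, and 10.75, 10.36, and 9.69 in R1 arrays. Its 3 R3 arrays all lay above the R2 arrays (0.77 ± 0.24), with an adjusted p of 0.0868. It passed with the date block, as given above, and also without R1 replicate 1 (0.0359) or 3 (0.0152), in the fit to 2 populations (0.0178), with centered arrays (0.0437), and with dim genes left out (0.048). *Phf11d* had 6.74, 6.92, and 6.77 in R3 arrays, 7.07, 6.87, and 6.98 in R2 arrays, and 7.19, 7.43, and 7.77 in R1 arrays, and was lower in R3 than in R1 cells (-0.66 ± 0.14, adjusted p = 0.0109). *Sp100*, another nuclear body protein, was not called and ranged from 10.75 to 11.05 over the 9 arrays.

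Of the 2 galectin-related genes, *Lgals9* followed the stepwise order with little spread. It encodes galectin-9 and had 9.63, 9.59, and 9.68 in R3 arrays, 9.96, 9.88, and 9.88 in R2 arrays, and 10.24, 10.21, and 10.23 in R1 arrays. R3 minus R2 was -0.27 ± 0.06 (adjusted p = 0.0201) and R3 minus R1 was -0.59 ± 0.06 (adjusted p = 0.000188). The call against R2 was lost without R3 replicate 1 or 2 or R2 replicate 1 or 2 (adjusted p up to 0.0833) and under centering or quantile normalization of the arrays. *Lgals3bp*, which binds a galectin, was not called and differed by 0.04, -0.55, and -0.58 in R3 minus R2, R3 minus R1, and R2 minus R1.

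The remaining 7 interferon-induced genes held 2 with large differences. *Rtp4*, named as a receptor transport chaperone, had 6.53, 5.40, and 6.43 in R3 arrays, 7.63, 7.44, and 7.79 in R2 arrays, and 8.86, 8.38, and 8.45 in R1 arrays. *Rtp4* was 2.82-fold lower in R3 than in R2 cells (-1.50 ± 0.27, adjusted p = 0.0077) and 5.43-fold lower in R3 than in R1 cells (-2.44 ± 0.27, adjusted p = 0.00034). R3 replicate 2 lay below the array medians. Its R2 arrays, all below the R1 arrays (-0.94 ± 0.27), were called only without R3 replicate 2 (adjusted p = 0.046). *Xaf1*, an antagonist of the apoptosis inhibitor XIAP, had 7.24, 6.89, and 7.19 in R3 arrays, 8.69, 8.30, and 8.37 in R2 arrays, and 9.02, 8.85, and 8.68 in R1 arrays. R2 and R1 cells overlapped by 1 array, and R3 cells were lower than both, by 2.55-fold against R2 (adjusted p = 0.00024) and 3.35-fold against R1 (adjusted p = 3.75e-05), in every alternative that was run. *Epsti1* had 9.47, 9.46, and 9.53 in R3 arrays, 9.53, 9.57, and 9.33 in R2 arrays, and 9.98, 9.88, and 9.66 in R1 arrays, so that R1 alone stood apart (R3 minus R1 -0.35 ± 0.10, adjusted p = 0.0441). *Ifi27* had 7.53, 7.39, and 7.53 in R3 arrays, 7.68, 7.73, and 7.66 in R2 arrays, and 8.15, 7.99, and 7.65 in R1 arrays (R3 minus R1 -0.45 ± 0.12, adjusted p = 0.0341). These calls were lost without any 1 of 7 arrays for *Epsti1* (all but R2 replicate 3 and R1 replicate 3) and 8 arrays for *Ifi27* (all but R1 replicate 3), with adjusted p up to 0.122 and 0.115. *Tor3a* and *Ifi35* were not called, at -0.39 ± 0.11 (adjusted p = 0.0536) and 0.14 ± 0.13 in R3 minus R1. *Tor3a* passed without R3 replicate 3 (0.0489) or R2 replicate 1 (0.0497) and with dim genes left out (0.0342).

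The members differed in where the drop fell. As a share of the difference between R3 and R1 means, the part already present between R2 and R1 was 37.1 to 55.6% in the 13 members with separate arrays, with *Parp14* at the low end and *Oas3* at the high end. It was 15.9% for *Oas2*, 16.3% for *Cmpk2*, 20.5% for *Oasl1*, and 22.5% for *Xaf1*, whose R2 arrays stayed near those of R1. It was 92.8% for *Ube2l6*, 98.1% for *Dtx3l*, and 102% for *Epsti1*, whose R2 arrays lay at the level of R3. Whether the shares differ between genes was not tested.

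Members also varied together within a date. Over the 38 members, deviations from the population mean correlated at r = 0.251 to 0.633 between arrays of 1 date, against -0.0244 to 0.152 over all genes. These are descriptions across genes of arrays that share a date. R3 replicate 2 had the lowest median deviation of members in R3 cells, at -0.13, and also the lowest granule sum given above. R1 replicate 3 had the lowest median deviation in R1 cells, at -0.11, but the highest granule sum of the R1 arrays, 12203. A link between these measures was not tested.

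**Figure D4:**
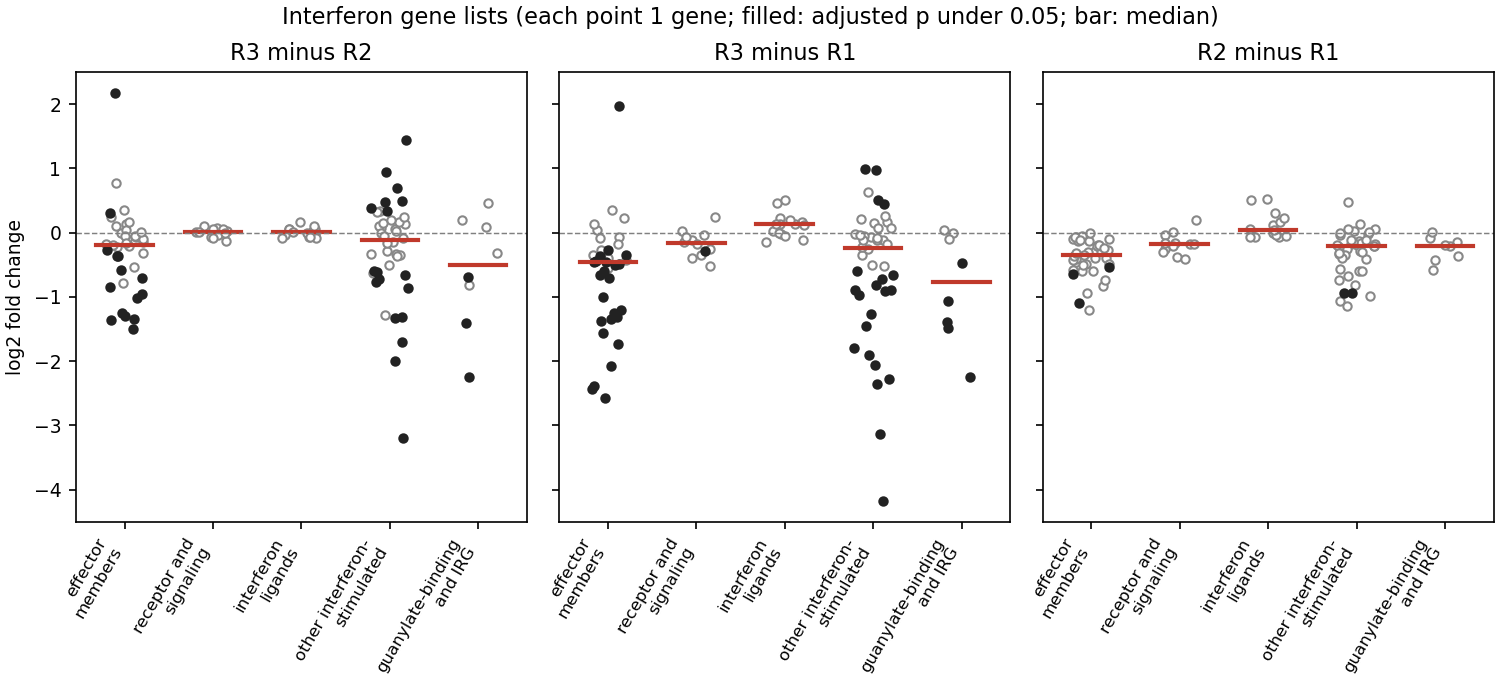
Log2 fold change of each measured gene in the effector members (38), receptor and signaling genes (12), interferon ligands (15), other interferon-stimulated genes (42), and guanylate-binding and immunity-related GTPases (8), for R3 minus R2, R3 minus R1, and R2 minus R1 cells. Filled points passed an adjusted p of 0.05 in limma and bars mark medians, which for signaling genes and ligands lie between -0.17 and 0.14.

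Few of the genes upstream of the members were called, but few of all genes were as well. Of 13 receptor and signaling genes 12 were measured, and none was called in R3 minus R2 or in R2 minus R1 cells (limma). Of all genes, 4.69% were called lower and 4.85% higher in R3 minus R2, and 0.181% and 0.211% in R2 minus R1. At an unadjusted p under 0.05, 0 differed in R3 minus R2, where 9.49% of all genes were lower and 9.91% higher. In R2 minus R1, 4 were lower, against 6.11% of all genes, and 10 of the 12 had the lower mean, against 55.7% of all genes. In R3 minus R1 cells 1 was called lower, where 7.02% of all genes were. It was *Jak1*, with 10.22, 10.17, and 10.30 in R3 arrays, 10.25, 10.29, and 10.23 in R2 arrays, and 10.48, 10.57, and 10.50 in R1 arrays (adjusted p = 0.0172). At an unadjusted p under 0.05, 4 were lower and 1 higher in R3 minus R1, where 2484 and 2318 of 19937 genes were. The transcription factor *Irf1* was largest in size at -0.52 ± 0.15 (adjusted p = 0.0582), and passed with the date block (0.0245). *Irf2* was -0.39 ± 0.12 (adjusted p = 0.061). *Ifnar1*, a receptor chain, *Stat2*, and *Irf9* differed by -0.25, -0.12, and -0.07 in R3 minus R1 and were not called. Of 21 interferon genes 15 were measured, and none was called in any comparison (limma). None of them passed an unadjusted p of 0.05 in R3 minus R2 or R3 minus R1. In R2 minus R1 cells 2 were higher at that threshold, as were 910 of 19937 genes. Many of these genes were dim, with *Ifnb1* at 3.99 to 4.25 over the 9 arrays, below the array medians of 5.86 to 6.02. The lack of calls therefore does not show equal levels of interferon transcripts. The median difference in R2 minus R1 was -0.17 for signaling genes and 0.04 for interferons, against -0.35 for the members.

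Other interferon-stimulated genes, 42 measured of 46 listed, moved in both directions. In R3 minus R2 cells 11 were lower and 7 higher, against 4.69% and 4.85% of all genes. In R3 minus R1 cells 17 were lower and 4 higher, against 7.02% and 6.49% of all genes. In R2 minus R1 cells 2 were lower and none higher, against 0.181% and 0.211% of all genes. Their medians were -0.11, -0.24, and -0.20. The 6 with the largest folds were all lower in R3 than in R1 cells: *Slfn1*, a Schlafen protein, by 18.2-fold (adjusted p = 3.22e-06), the RNA receptor *Tlr7* by 8.80-fold (adjusted p = 0.000169), *Ifit3b* (adjusted p = 0.0129), the nucleic acid sensor *Zbp1* by 4.86-fold (adjusted p = 0.000362), the chemokine *Cxcl10* by 4.17-fold (adjusted p = 3.32e-05), and *Oas1a* by 3.77-fold (adjusted p = 0.000695). No fold is given for *Ifit3b*, since its R3 arrays read 3.51, 3.96, and 3.22, far below the array medians of 5.86 to 6.02. No measure of background was at hand. *Tlr7* had 6.36, 4.79, and 5.85 in R3 arrays, close to or below those medians, so the size of its fold is uncertain. *Slfn1* had 6.41, 7.33, and 6.80 in R3, 10.10, 10.05, and 9.98 in R2, and 11.20, 11.20, and 10.69 in R1 arrays. The 4 that were higher in R3 than in R1 cells, named after their values were seen, were *Pml*, the scaffold of nuclear bodies (0.99 ± 0.09), the cytidine deaminase *Apobec3* (0.98 ± 0.10), *Ifi203* (0.51 ± 0.09), and the peptide transporter *Tap1* (0.44 ± 0.08). The pair lower in R2 than in R1 cells, also named after their values were seen, was *Slfn5* (-0.94 ± 0.10, adjusted p = 0.0153) and *Ddx58*, the RNA sensor RIG-I (-0.94 ± 0.12, adjusted p = 0.0236). With the date block *Slfn5* stayed called (0.0418) and *Ddx58* did not (0.0613), and *Rnf213* (0.00922, against 0.0866 without it) and *Ifit3b* (0.0445, against 0.184) were also lower in R3 than in R2 cells.

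Of 15 guanylate-binding and immunity-related GTPases, which act at pathogen vacuoles, 8 were measured. Lower in R3 than in R2 cells were 3, against 4.69% of all genes. Lower in R3 than in R1 cells were 5, against 7.02% of all genes, and none was called between R2 and R1 cells. *Gbp7* had 5.12, 5.96, and 5.65 in R3 arrays, 7.88, 7.77, and 7.84 in R2 arrays, and 7.56, 7.80, and 8.10 in R1 arrays. *Gbp3* had 6.83, 7.14, and 6.93 in R3 arrays, 8.46, 8.37, and 8.26 in R2 arrays, and 8.27, 8.28, and 8.76 in R1 arrays. In both, R2 and R1 cells shared 1 level and R3 cells lay below it (R3 minus R2 -2.25 ± 0.20 for *Gbp7* and -1.40 ± 0.14 for *Gbp3*, adjusted p = 0.000104 and 0.000222). *Gbp5* was lower in R3 than in R2 (-0.69 ± 0.16, adjusted p = 0.0257) and in R1 cells (-1.06 ± 0.16, adjusted p = 0.00203), and *Gbp9* (-1.39 ± 0.29) and *Gbp4* (-0.47 ± 0.10, with all 9 arrays at only 3.52 to 4.18) were called in R3 minus R1 alone. The R3 arrays of *Gbp7* and of *Gbp5* (5.04, 5.23, and 5.68) lay at or below the array medians of 5.86 to 6.02. The size of their differences is therefore uncertain.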

How the data were processed

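Gene expression was measured on 9 Affymetrix mouse gene arrays, from 1 ng RNA per sample amplified and labeled with NuGEN kits. The authors deposited 1 linear intensity per probe set and array for 34760 probe sets, analyzed with GenePattern; which summarization and normalization they used is not stated in the methods or labels. All value columns were used, and the number of arrays limits the precision. Values were identical on all 3 arrays of a population in 1202 genes and in 0 members, for a reason that is not known. The effect of these ties on the error estimates was not tested. Intensities were put on the log2 scale. In the platform annotation 21640 probe sets name 1 gene, 1321 several, and 11799 none here, and 21553 matched RefSeq by Entrez ID. The probe set of highest mean was kept per gene (19937 genes), with no filter on dim ones. Differences came from lmFit and eBayes of limma 3.58.1 in R 4.3.3, over 3 populations in 1 model with 6 residual degrees of freedom, with Benjamini-Hochberg adjustment over all genes in each comparison. The script was tested on simulated data. Alternatives were a fit to 2 populations, the label date as a block, centering, quantile normalization, a filter at mean log2 intensity 6, averaged probe sets, the methods' t-test, and leaving out arrays or dates. Arrays of 1 date are paired by the labels, and their deviations over all genes correlated at -0.0244 to 0.152. Any member could be named, with all arrays given for called ones, and up to 6 called genes of largest fold per other list. Members and lists were chosen with earlier results of these data known.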

Additional observations from a re-analysis of the deposited data

How the results depend on the processing

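No called result reversed under the alternatives. The 71 single-member differences with an unadjusted p under 0.05 (limma), called or not, were followed through 19 alternatives. Of these values 1134 kept their direction and side of the threshold, 198 lost a call, and 17 gained one. Only called differences could lose a call, so the 198 are a larger share of their values than of all values. The 2 members higher in R3 than in R2 cells became 1 with quantile normalization and 1 with the methods' t-test after Benjamini-Hochberg, and 1 to 3 when arrays or dates were left out. The 13 lower in R3 than in R2 became 5 with the t-test and 5 to 13 when arrays or dates were left out. The 23 lower in R3 than in R1 became 7 with the t-test and 13 to 22 with arrays or dates left out. The 3 lower in R2 than in R1 became 0 in the fit to the 2 populations, 0 with the date as a replicate block, 0 with the t-test, and 0 to 4 with arrays or dates left out. The median R2 minus R1 difference of members was -0.43 with centered arrays and -0.39 to -0.30 with arrays left out. Members in the stepwise order R3 below R2 below R1 numbered 23 to 30 with arrays left out, and those in the reverse order 0 to 1. Beside the calls named in the report, the block changed no other call of a member or of the other interferon lists. Of all genes 36 were called lower in R2 than in R1, 8 with the block and 1 in the fit to the 2 populations.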
